A study of Mus musculus with 32 samples.

Results

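Macrophages of fat were followed here through 34 of their marker genes in the subcutaneous white adipose tissue of mice, measured by RNA sequencing 9 days after an operation. The genes were taken by name from a list of macrophage markers, with a minimum mean of 10 normalised reads over the 32 libraries. All 34 reached it, among 15588 genes that did so and 18124 in the table. A normalised read count is the number of reads of a gene divided by a scaling factor of its library. Each of the 16 VSG mice had a vertical sleeve gastrectomy, surgery in which the greater part of the stomach is cut away, leaving a narrow sleeve. Each of the 16 sham mice had the control operation. In both groups 4 animals were sampled at each of ZT1, ZT7, ZT13 and ZT19, where ZT counts hours from the start of the light period. Every animal was C57BL/6J, and all 8 groups shared the feeding regime: a liquid diet was offered before the operation and became the sole food for the last 2 days, an overnight fast followed, the liquid diet alone was given up to day 3 after it, and a diet labelled HFD was offered beside it on day 4. Controls therefore carried the same fast and diet change, and unoperated animals were not analysed here.

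Macrophages descend from circulating monocytes or from cells seeded before birth, and the receptor of colony-stimulating factor 1 and the transcription factor PU.1 keep their identity. In fat they lie around vessels and between adipocytes, where they take up dead cells, lipid and debris, secrete complement, and increase with obesity. Some markers are carried by nearly all macrophages (Adgre1, Csf1r, Cd68), some by resident perivascular cells (Lyve1, Folr2, Timd4, Cd163), and some by other myeloid cells too (Itgam, Itgb2, Tyrobp, Lyz2).

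The libraries held 15.7 to 37.2 × 1e6 reads in VSG and 20.2 to 36.7 × 1e6 in sham animals. The tissue showed its own markers, with Adipoq, the adiponectin gene of adipocytes, at 92693 ± 14462 in VSG and 107252 ± 15605 in sham (SD, n = 16 each). Libraries differed beyond their groups. In 4 of them (VSG ZT1 replicates 1 and 3, VSG ZT13 replicate 1 and sham ZT1 replicate 1) the mean log2 level of 16 B cell markers was at least 10.6, against at most 8.2 in the others, and they are called B cell-rich here. In 7 of them (5 VSG and 2 sham) the mean of 16 skeletal muscle markers was at least 7.74, against at most 5.14, and they are called muscle-rich. Sham ZT1 replicate 4, one of these 7, stood apart from the other sham libraries in the macrophage genes themselves, and it was also the highest sham library in the mean log2 level of adipose progenitor markers (14.0, against at most 12.8 in the other 15) and of mast cell markers (8.43, against at most 7.62). Recorded weight loss, whose unit is not given, was 10.6 to 23.1 in VSG mice (median 16) and 2.15 to 8.96 in sham mice (median 5.24), so surgery and weight loss cannot be told apart between the 2 groups. The main counts are given with and without the libraries that stand apart.

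Nearly all macrophage markers were higher after VSG. Averaged over the 4 times, 31 of the 34 rose and none fell (limma on log2(value + 1), adjusted over all genes, n = 16 per surgery), where 18.3% of the 15588 genes rose and 20.9% fell. The median log2 fold change was 0.82 over the members and 0.01 over all genes. The 3 that were not called were Mertk, Ms4a4a and Marco. Among called members the range ran from 1.24-fold for Maf to 2.83-fold for Cd5l. Errors beside fold changes are standard errors of the log2 value, and adjusted p-values are limma's. In whole tissue, more macrophages and more RNA per macrophage cannot be told apart. The surgeries still overlapped: no member separated all VSG from all sham libraries, and of all genes 0 did so upwards and 1 downwards (0.00642%). The count of members that rose was 28 of 34 when the 4 B cell-rich libraries were left out, 31 when the 7 muscle-rich ones were, and 31 with edgeR or DESeq2 on the recovered reads. With the mean level of 15 neutrophil markers as a covariate limma called 0 members, 0 had an unadjusted p under 0.05, and 3 of all genes were then called (0.0192%). The summed level of these markers had a median of 4625 in VSG and 788 in sham libraries, so this fit separates it poorly from surgery. These markers are described with the other cell types.

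**Figure D1:**
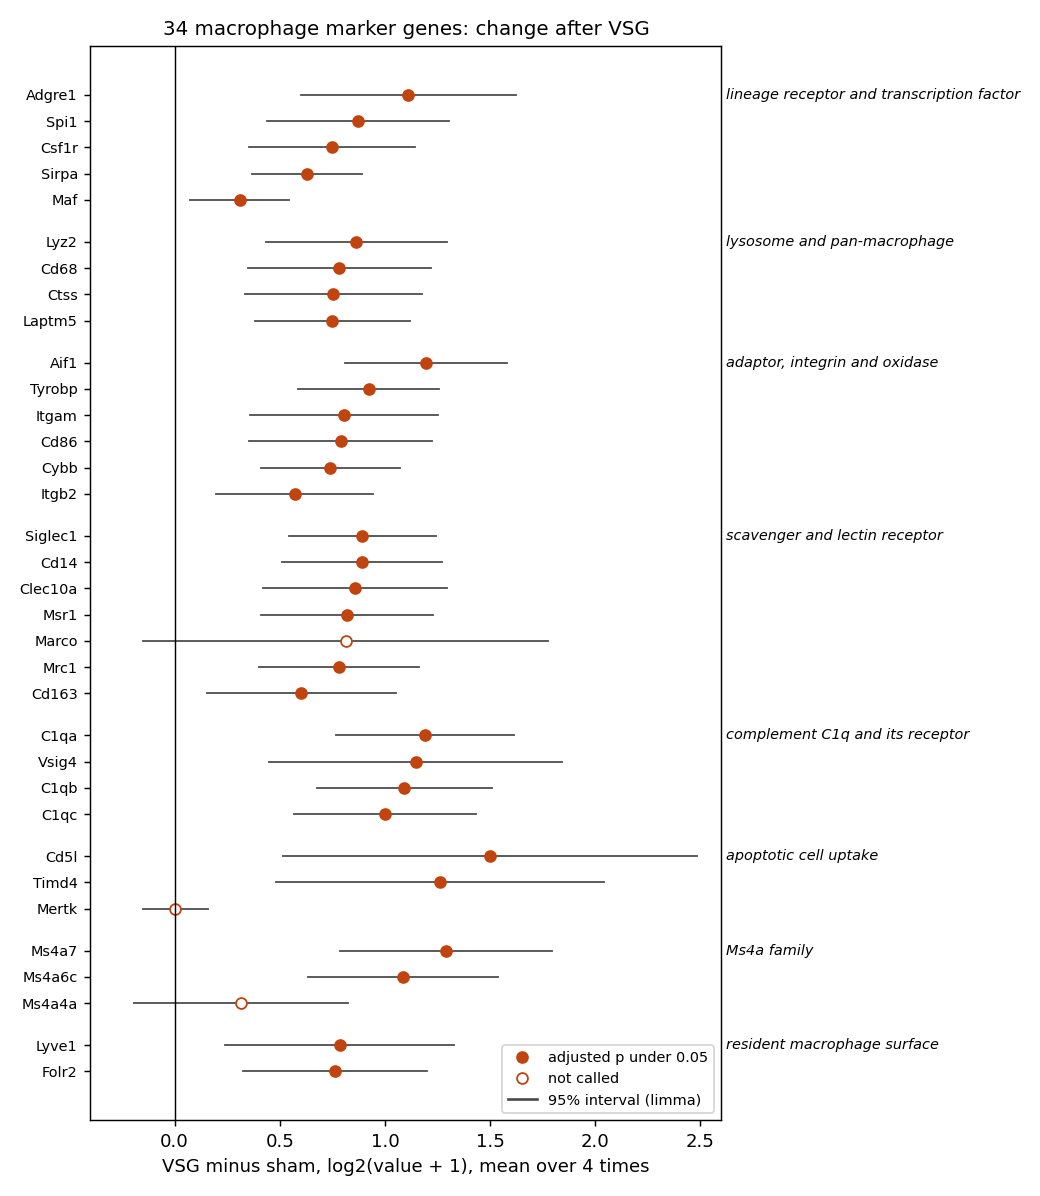
Difference between VSG and sham for each of the 34 genes on the log2(value + 1) scale, averaged over 4 times, with 95% intervals, grouped by role. Filled points passed an adjusted p of 0.05 (31 genes); Mertk lies at 0.00 with a narrow interval, while Marco has a wide one.

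The receptors and transcription factors that define the lineage rose in all 5 cases. Adgre1 encodes F4/80, the classic surface marker of mouse macrophages. Its lowest, median and highest normalised read counts were 832, 3162 and 9292 in VSG libraries, against 959.6, 1326 and 3430.2 in sham libraries. In 7 of 16 VSG libraries Adgre1 lay above every sham library, and in 14 above the sham median. It rose 2.16-fold (log2 1.11 ± 0.25, adjusted p = 0.00106). Spi1, the gene of PU.1, rose 1.83-fold (log2 0.87 ± 0.21, adjusted p = 0.00197). Csf1r, the receptor of colony-stimulating factor 1, rose 1.68-fold (log2 0.75 ± 0.19, adjusted p = 0.00331), and Sirpa, the inhibitory receptor that reads CD47 on other cells, rose 1.55-fold (log2 0.63 ± 0.13, adjusted p = 0.000406). Maf, a transcription factor of resident macrophages that other cells of fat also express, changed least of the 5. Its lowest, median and highest counts were 1535, 2408 and 3551 in VSG libraries, against 1399.7, 1795 and 3649 in sham libraries. In 14 of 16 VSG libraries Maf lay above the sham median, and in none above sham ZT1 replicate 4, the highest of all 32. Maf rose 1.24-fold (log2 0.31 ± 0.11, adjusted p = 0.0331), a call that was lost on leaving out any of 11 single libraries (listed with the processing alternatives), with adjusted p-values up to 0.0584.

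Lysosomal and pan-macrophage genes rose in 4 of 4 cases. Lyz2, which encodes lysozyme M and is also high in neutrophils and monocytes, had lowest, median and highest counts of 10460.4, 30277 and 67136 in VSG libraries, against 9207, 14707 and 40979 in sham libraries. The 4 highest values came from VSG ZT1 and ZT13, and 4 VSG libraries lay at or below the sham median. Lyz2 rose 1.82-fold (log2 0.86 ± 0.21, adjusted p = 0.00203). Cd68, a lysosomal membrane glycoprotein, rose 1.72-fold (log2 0.78 ± 0.21, adjusted p = 0.00503), and Ctss, the cysteine protease cathepsin S that trims the class II invariant chain, rose 1.69-fold (log2 0.75 ± 0.21, adjusted p = 0.00511). Laptm5, a lysosomal membrane protein of blood cells in general, had counts of 2791, 8141 and 16643 in VSG libraries, against 2772, 4249 and 13489.8 in sham libraries. Only 3 VSG libraries exceeded every sham library in Laptm5, which rose 1.68-fold (log2 0.75 ± 0.18, adjusted p = 0.0019).

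Signalling adaptors, integrins and the phagocyte oxidase rose in 6 of 6 cases. Aif1, the gene of the actin-bundling protein IBA1, was called most firmly of all members. It had lowest, median and highest counts of 225, 650.1 and 1381 in VSG libraries, against 175, 262 and 749.9 in sham libraries. One VSG library lay below the sham median of Aif1, and 4 sham libraries lay below every VSG library. Aif1 rose 2.29-fold (log2 1.19 ± 0.19, adjusted p = 3.18e-05). Tyrobp, the DAP12 adaptor that carries signals of TREM2 and related receptors, rose 1.90-fold (log2 0.92 ± 0.16, adjusted p = 0.000106). Itgam, the CD11b chain of complement receptor 3, rose 1.75-fold (0.81 ± 0.22), Cd86, a costimulatory ligand of T cells, 1.73-fold (0.79 ± 0.21), and Cybb, the catalytic chain of the oxidase, 1.67-fold (0.74 ± 0.16), with adjusted p-values of 0.00476, 0.00456 and 0.00085. Itgb2, the CD18 chain that all leukocytes carry, had counts of 1000.3, 3117 and 4850.2 in VSG libraries, against 923, 1819.7 and 3716 in sham libraries. Sham and VSG values of Itgb2 overlapped over most of their range, and the gene rose 1.49-fold (log2 0.57 ± 0.18, adjusted p = 0.0148). With B cell and muscle marker levels as covariates Itgb2 and Cd86 were not called (log2 0.50 and 0.53, adjusted p = 0.0667 and 0.0552).

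Scavenger and lectin receptors rose in 6 of 7 cases. Siglec1, the sialic acid receptor CD169, had lowest, median and highest counts of 426, 952 and 2769 in VSG libraries, against 414, 513 and 1337 in sham libraries. One VSG library lay below the sham median, and 4 lay above every sham library. Siglec1 rose 1.86-fold (log2 0.89 ± 0.17, adjusted p = 0.000247). Cd14, the co-receptor for lipopolysaccharide, rose 1.86-fold (log2 0.89 ± 0.19, adjusted p = 0.000536), and Clec10a, a galactose-type lectin, 1.81-fold (log2 0.86 ± 0.21, adjusted p = 0.00257). Msr1, scavenger receptor A, rose 1.76-fold (log2 0.82 ± 0.20, adjusted p = 0.0021), and Mrc1, the mannose receptor CD206, 1.72-fold (log2 0.78 ± 0.19, adjusted p = 0.00178). Cd163, the receptor that clears haemoglobin bound to haptoglobin, had counts of 747, 1835 and 2905 in VSG libraries, against 435, 1091 and 5521 in sham libraries. The highest Cd163 value of all 32 libraries came from sham ZT1 replicate 4, and the next sham value was 1847. Cd163 rose 1.52-fold (log2 0.60 ± 0.22, adjusted p = 0.031). It was not called by edgeR (log2 0.46, adjusted p = 0.112), by DESeq2 (0.46, 0.0828) or on leaving out the B cell-rich libraries (0.47, 0.0951).

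Marco, a scavenger receptor that binds bacteria and particles, averaged 837 ± 1686 in VSG and 129 ± 111 in sham (SD, n = 16 each), with medians of 105 in VSG and 100 in sham. The medians were close and the highest values far apart, at 5935 in VSG and 517 in sham libraries. limma gave a log2 fold change of 0.81 ± 0.47 (adjusted p = 0.171). On the recovered reads edgeR gave 1.49 (adjusted p = 0.0161) and DESeq2 1.50 (adjusted p = 0.00388). When the 4 B cell-rich libraries were left out limma gave 0.08 (adjusted p = 0.808), with medians of 84 in the other 13 VSG and 98 in the other 15 sham libraries.

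The complement genes all rose, by log2 1.00 to 1.19. C1qa, C1qb and C1qc encode the chains of C1q, the recognition molecule of the classical complement pathway, for which macrophages are the main source, and Vsig4 encodes a receptor for C3 fragments. C1qa had lowest, median and highest counts of 4360.3, 12575 and 21857 in VSG libraries, against 3294, 4736 and 14562 in sham libraries. 7 VSG libraries exceeded every sham library, and 5 sham libraries lay below every VSG library. C1qa rose 2.28-fold (log2 1.19 ± 0.21, adjusted p = 9.24e-05), C1qb 2.13-fold (log2 1.09 ± 0.20, adjusted p = 0.000183) and C1qc 2.00-fold (log2 1.00 ± 0.21, adjusted p = 0.000609). C1qc had counts of 3299, 10461 and 17190.0 in VSG libraries, against 2767, 4310.0 and 12182 in sham libraries. Sham ZT1 replicate 4 was the highest sham library of all 3 chains, and VSG ZT19 replicates 2 and 4 and VSG ZT7 replicate 2 were the lowest VSG libraries. Across the 32 libraries the SD of the log2 level was 0.88 for C1qa and 0.84 for C1qb, and the SD of the log2 ratio of C1qa to C1qb was 0.18. Vsig4 rose 2.21-fold (log2 1.15 ± 0.34, adjusted p = 0.00934).

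The 3 C1q genes lie side by side on the minus strand of chromosome 4, C1qb at 136880129 to 136886187, C1qc at 136889804 to 136893065 and C1qa at 136895917 to 136898803 (mm10). As background, PU.1 binds purine-rich sites, and GAGGAA is a common form of their core. Windows of 250 bases before the start of the gene (RefSeq, GRCm38.p6) were at hand for 20 of the 34 members (22 windows). RefSeq starts differ from the deposited gene spans for some members. Windows of C1qc and Laptm5, among others, therefore lie partly inside those spans. GAGGAA or its reverse complement TTCCTC was found in 11 of the 22 windows, 1 for each of 11 members, and in 23.2% of 32851 windows of all genes. The longer GAGGAAGT, which contains the shorter motif, was found in 1 member window, that of C1qc, and in 2.44% of all windows. The windows below belong to 3 genes that rose and hold the motif, 1 that rose without it and 1 that was not called and lacks it. Among windows not printed, that of Marco holds the motif although Marco was not called. Those of Lyz2, Cd163, Folr2, Timd4, Ms4a6c and Cybb lack it although these genes rose. A relation between motif and change was not tested. They are printed 5′ to 3′ on the strand of the gene, with GAGGAA or TTCCTC in capitals.
C1qb (chr4:136886201-136886450, minus strand): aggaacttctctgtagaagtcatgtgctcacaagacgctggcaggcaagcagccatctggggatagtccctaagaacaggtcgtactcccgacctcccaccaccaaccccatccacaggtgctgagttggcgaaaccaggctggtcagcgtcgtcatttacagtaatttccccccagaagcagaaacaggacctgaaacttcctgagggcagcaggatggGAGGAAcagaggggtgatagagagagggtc
Vsig4 (chrX:96293439-96293688, minus strand): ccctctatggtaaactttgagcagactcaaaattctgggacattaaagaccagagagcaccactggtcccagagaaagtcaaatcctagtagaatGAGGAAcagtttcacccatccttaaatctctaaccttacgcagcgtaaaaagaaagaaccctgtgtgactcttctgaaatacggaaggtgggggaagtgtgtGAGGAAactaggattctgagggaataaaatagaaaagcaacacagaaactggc
Cd68 (chr11:69666171-69666420, minus strand): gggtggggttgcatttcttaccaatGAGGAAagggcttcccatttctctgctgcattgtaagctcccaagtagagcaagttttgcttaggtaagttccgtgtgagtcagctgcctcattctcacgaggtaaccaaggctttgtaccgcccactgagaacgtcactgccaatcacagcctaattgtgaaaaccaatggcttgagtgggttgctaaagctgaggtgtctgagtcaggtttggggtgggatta
Ms4a7 (chr19:11336147-11336396, minus strand): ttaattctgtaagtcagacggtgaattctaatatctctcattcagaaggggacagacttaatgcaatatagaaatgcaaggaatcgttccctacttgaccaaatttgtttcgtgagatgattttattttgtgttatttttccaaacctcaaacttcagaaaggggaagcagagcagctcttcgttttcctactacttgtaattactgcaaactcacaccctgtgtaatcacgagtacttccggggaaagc
Mertk (chr2:128698665-128698914, plus strand): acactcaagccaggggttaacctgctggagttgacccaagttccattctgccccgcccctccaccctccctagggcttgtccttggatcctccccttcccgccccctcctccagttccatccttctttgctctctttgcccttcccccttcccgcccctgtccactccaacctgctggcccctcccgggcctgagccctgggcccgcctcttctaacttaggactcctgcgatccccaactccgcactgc
C1qb holds 1 match, which begins 30 bases before the start of the gene, Cd68 holds 1 at 225 bases before it, and Vsig4 holds 2 at 155 and 53. A match describes letters and not a bound site, and its absence from a window says nothing about the factor.

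Of the 3 genes for the uptake of apoptotic cells, 2 rose. Mertk, the receptor kinase that recognises dying cells through GAS6 and protein S, was not called and its estimate was close to 0. Its lowest, median and highest counts were 605, 918 and 1246 in VSG libraries, against 562, 925 and 1180.4 in sham libraries. The 2 ranges nearly coincide, with 8 of 16 VSG libraries above the sham median. Its log2 fold change was 0.00 with a 95% interval of -0.15 to 0.16 (adjusted p = 0.97). Timd4, the phosphatidylserine receptor TIM-4, rose 2.40-fold (log2 1.26 ± 0.38, adjusted p = 0.0101). Cd5l, a protein that macrophages secrete and that binds lipids and IgM, had counts of 3.43, 64 and 765 in VSG libraries, against 4.65, 20.6 and 148 in sham libraries. 3 VSG libraries stood above every sham library in Cd5l, and the lowest value of all 32 was also a VSG library. Cd5l rose 2.83-fold (log2 1.50 ± 0.48, adjusted p = 0.0152), with the widest interval of the called members. When the 4 B cell-rich libraries were left out Cd5l was 0.93 (adjusted p = 0.116), and Timd4 was 0.92 (adjusted p = 0.0118). With B cell and muscle marker levels as covariates neither Cd5l nor Timd4 was called.

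Of the Ms4a genes, tetraspan membrane proteins that sit beside immune receptors, Ms4a7 and Ms4a6c rose and Ms4a4a was not called. Ms4a7 had lowest, median and highest counts of 236, 901 and 1730.3 in VSG libraries, against 205, 321 and 857 in sham libraries. In 8 of 16 VSG libraries Ms4a7 exceeded every sham library. It rose 2.45-fold (log2 1.29 ± 0.25, adjusted p = 0.000235), and Ms4a6c rose 2.12-fold (log2 1.09 ± 0.22, adjusted p = 0.000427). Ms4a6c overlaps BE692007 on the opposite strand, and the strand setting of the counting is unknown here, which holds for Csf1r and the opposite Hmgxb3 as well. Ms4a4a had counts of 32, 105 and 251 in VSG libraries, against 50.3, 87.8 and 259 in sham libraries. The VSG top came from ZT1 replicate 1, with ZT13 replicate 1 (246.5) and ZT7 replicate 4 (232.5) close below it. The sham top came from ZT1 replicate 4, and the next sham value was 119.4. For Ms4a4a the log2 fold change was 0.32 ± 0.25 (adjusted p = 0.32).

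The 2 surface markers of resident perivascular macrophages both rose. Lyve1, the hyaluronan receptor that lymphatic endothelium carries as well, had lowest, median and highest counts of 325, 875 and 3433 in VSG libraries, against 276, 451 and 2796 in sham libraries. Lyve1 was high in VSG ZT13 replicates 1 and 3 and in sham ZT1 replicate 4. It rose 1.72-fold (log2 0.78 ± 0.26, adjusted p = 0.0204), and it was not called when the B cell-rich libraries were left out (0.62, adjusted p = 0.0824). Lyve1 was not called with B cell and muscle marker levels as covariates either. Folr2, folate receptor beta, had counts of 1263, 3200.0 and 5700.4 in VSG libraries, against 932, 1516 and 7903 in sham libraries. No VSG library exceeded the highest sham library in Folr2, since that was sham ZT1 replicate 4. Folr2 rose 1.70-fold (log2 0.76 ± 0.21, adjusted p = 0.00636).

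Per kilobase of exon, the markers spanned a wide scale. Lyz2 was the most abundant, with a mean of 24769 normalised reads per kilobase in VSG and 12370.1 in sham libraries. C1qb followed with 13302 in VSG and 5912 in sham, and C1qa with 12298 in VSG and 5086 in sham. Csf1r was among the more abundant, at 1443 in VSG and 839 in sham. Msr1 was the least abundant after VSG (62.1 in VSG, 32.9 in sham) and Cd5l was the least abundant in sham fat (79.9 in VSG, 15.2 in sham).

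The members did not all rise by the same amount. When each gene was taken relative to Csf1r in the same library, a comparison chosen after seeing the data, 4 of 33 members rose further than Csf1r and 3 less. The 4 were Ms4a7 (log2 ratio 0.54 ± 0.18, adjusted p = 0.00613), C1qa (0.44, 0.011), C1qb (0.34, 0.037) and Adgre1 (0.36, 0.0477). The 3 were Mertk (-0.74 ± 0.19, adjusted p = 0.00113), Maf (-0.44, 0.0265) and Ms4a4a (-0.43, 0.0494). Of all genes 0.552% were higher and 78.5% lower on this scale. Leaving out single libraries gave 2 to 8 higher and 1 to 3 lower, with 2 higher without VSG ZT13 replicate 1, VSG ZT19 replicate 1, sham ZT7 replicate 4, sham ZT13 replicate 2 or sham ZT19 replicates 2 or 3, 8 higher without sham ZT1 replicate 1, and 1 lower without VSG ZT19 replicate 1. Set against Cd68 instead, Ms4a7 and C1qa stayed higher and Mertk and Maf lower.

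**Figure D2:**
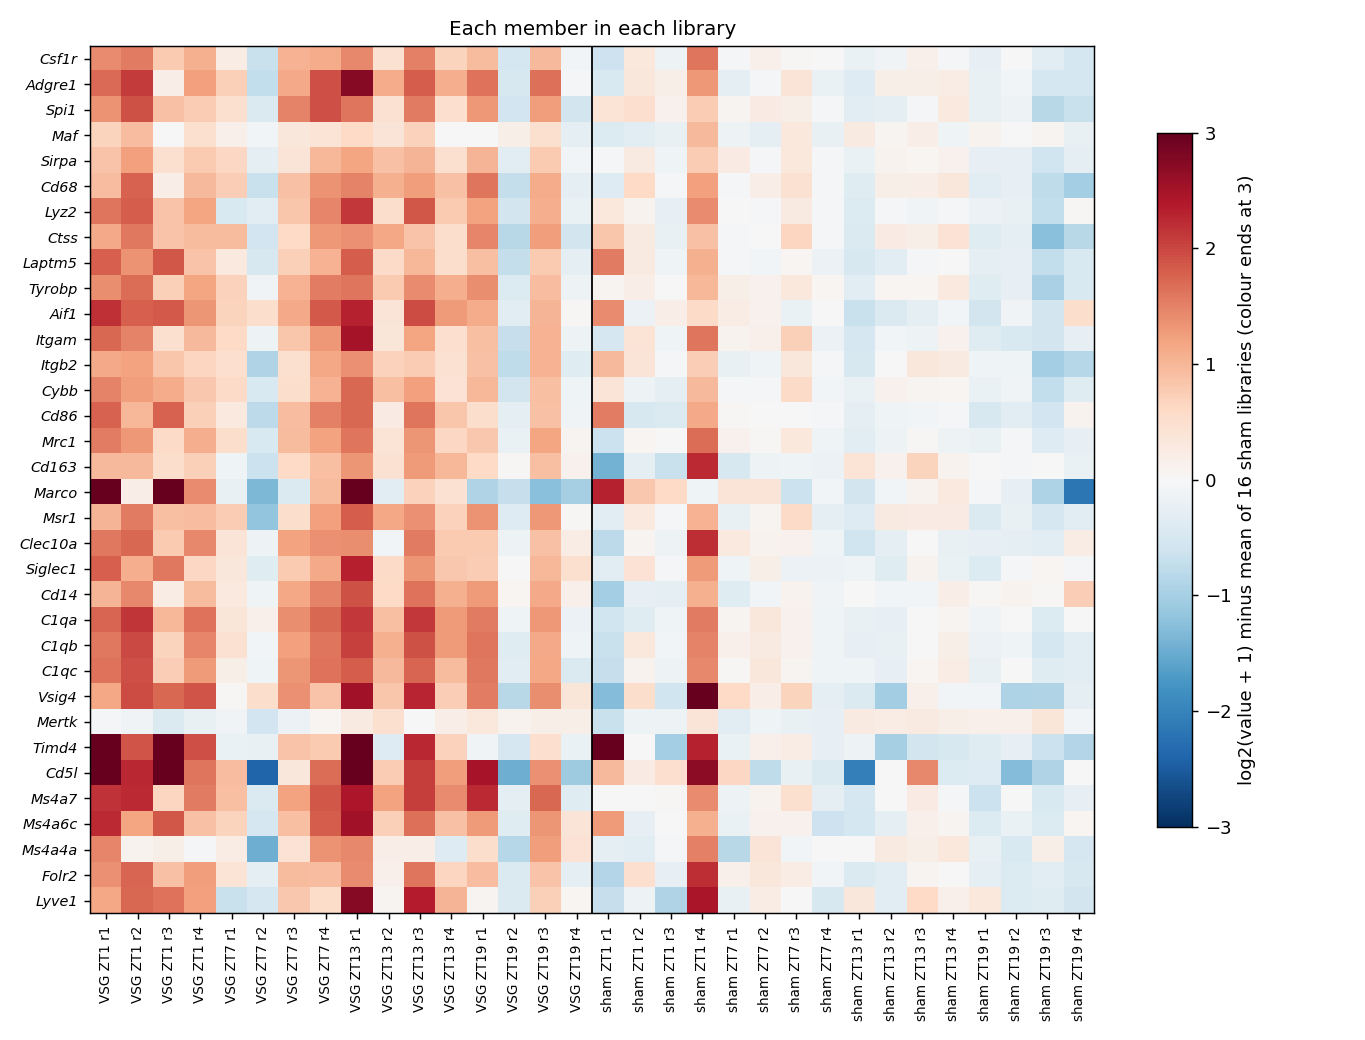
Each of the 34 members (rows) in each of the 32 libraries (columns, 16 VSG left of the line and 16 sham right of it), as log2(value + 1) minus the mean of the sham libraries. Most of the VSG side is red, apart from VSG ZT7 replicate 2 and VSG ZT19 replicates 2 and 4, while sham ZT1 replicate 4 is red among the sham libraries, and the row of Mertk is pale throughout.

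Libraries of the same surgery differed in the mean level over the members. The mean log2 level over the members, each taken against its sham mean, was highest in VSG ZT13 replicate 1 (2.03), which held the highest value of all 32 libraries for 13 members. At the other end of the VSG group, replicate 2 of ZT7 and replicate 2 of ZT19 lay below the sham mean (-0.48 and -0.43), and each held the lowest VSG value for 15 members. VSG ZT19 replicate 4 was just below it (-0.13). Sham ZT1 replicate 4 had a mean of 1.41, rank 5 of 32, and held the highest sham value for 27 members. For 8 of the 34 it was the highest of all 32 libraries. The other 15 sham libraries ranged from -0.50 to 0.18. Without that library and the 4 B cell-rich ones, an alternative chosen after seeing the data, 30 of 34 members rose over all times.

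Marco, Timd4 and Cd5l were high in VSG libraries where the B cell markers were high. In the 3 B cell-rich VSG libraries Marco had counts of 2694, 5935 and 3336, and in the other 13 VSG libraries 40.1 to 280.2. In the B cell-rich sham library Marco was 517, against 22.3 to 184 in the other 15 sham libraries. Timd4 had 1299, 2421 and 1359 in the same 3 VSG libraries and 57.9 to 401 in the other 13, and it was 729 in the sham one. Both genes thus stood above every other library of the same surgery wherever the B cell level was high. Cd5l had 445, 765 and 673 in the 3 VSG libraries and at most 128 in the other 13. In the B cell-rich sham library Cd5l was 44.5, inside the span of the other sham libraries. Other members were high in these libraries too. Laptm5, Cd86 and Ms4a6c were, like Marco and Timd4, above every other library of the same surgery in all 4 of them, with 15954 to 16643 for Laptm5 in the 3 VSG libraries, against at most 11725 in the other 13. Siglec1 was so in VSG alone and Aif1 and Itgb2 in sham alone. Csf1r, by contrast, had 12076, 7759.9 and 12181 in those VSG libraries and up to 13360.2 in the other 13. The summed level of the 16 B cell markers was 482 to 85094 in VSG and 364 to 53863 in sham libraries, and its part in the levels of these members was not tested beyond the values without these libraries. The mean log2 levels of T cell, dendritic cell and lymphatic endothelial markers were high in the same 4 libraries, and their part was not tested either.

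**Figure D3:**
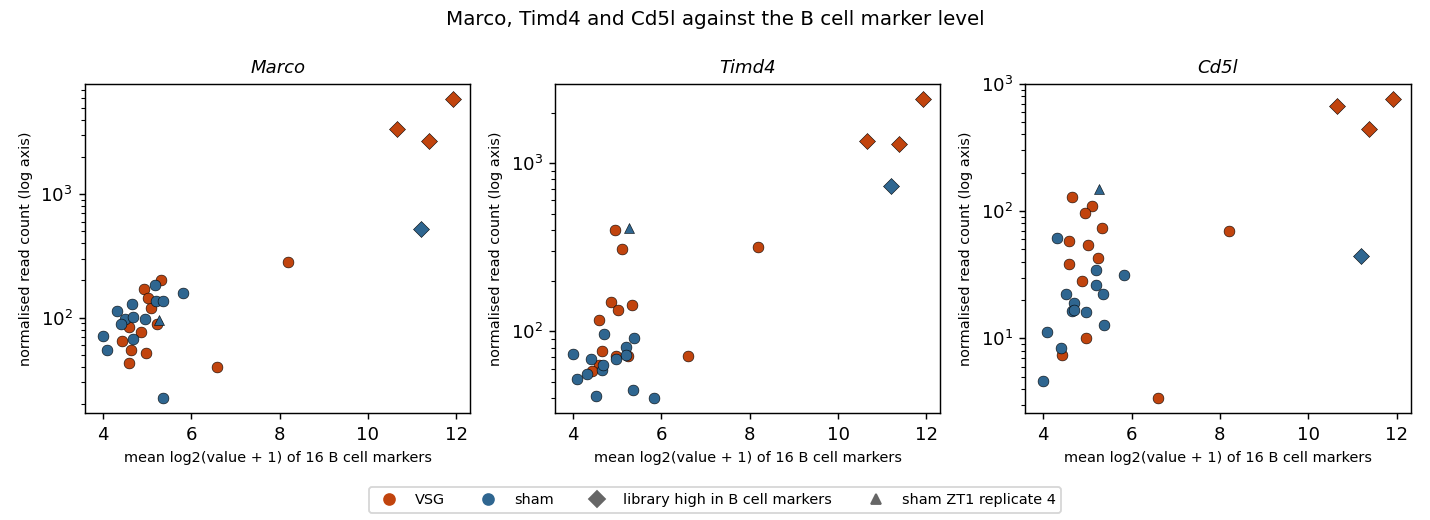
Normalised read counts of Marco, Timd4 and Cd5l (log axes) against the mean log2(value + 1) of 16 B cell markers, 1 point a library, VSG and sham by colour. The 3 VSG libraries at the right edge are the highest of all 32 for each gene, and the sham library beside them is the highest sham library for Marco and Timd4 and not for Cd5l.

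At each single time 33 of 34 estimates were positive, and 0 to 14 were called. At ZT1 the median log2 fold change over members was 0.93, and 2 members were called (1.17% of all genes rose). These were C1qa (2.85-fold, log2 1.51 ± 0.41, adjusted p = 0.0336) and Aif1 (2.42-fold, log2 1.27 ± 0.37, adjusted p = 0.044). C1qa had 16669.9, 21857, 9914 and 15321 in the 4 VSG animals and 3294, 3858, 4500.1 and 14562 in the 4 sham animals. A single sham library reached into the VSG range of C1qa. Without sham ZT1 replicate 4, 20 members were called at ZT1, and without sham ZT1 replicate 1, 5. None was called without VSG ZT1 replicates 1, 2 or 3, without sham ZT1 replicates 2 or 3, or without the B cell-rich libraries, and 1 without sham ZT7 replicates 1, 2 or 4, sham ZT13 replicates 2 or 3 or sham ZT19 replicate 2. The highest estimates at ZT1 were those of Cd5l (2.20 ± 0.96), Marco (2.14 ± 0.94) and Timd4 (2.06 ± 0.76), none of them called (adjusted p = 0.158, 0.16 and 0.0953). When the B cell-rich libraries were left out these were 0.80 ± 1.09 for Cd5l, 0.39 ± 0.56 for Marco and 1.49 ± 0.65 for Timd4. The lowest were those of Itgb2 (0.44 ± 0.36), Ms4a4a (0.22 ± 0.49) and Mertk (-0.06 ± 0.15).

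At ZT7 no member was called (1.73% of all genes rose), 2 had an unadjusted p under 0.05, edgeR called 0 and DESeq2 1. The median was 0.43, the lowest of the 4 times. Aif1 (1.01 ± 0.37), Ms4a6c (0.86 ± 0.44) and Ms4a7 (0.85 ± 0.49) had the highest estimates, and Lyve1 (0.17 ± 0.53), Mertk (0.03 ± 0.15) and Marco (-0.28 ± 0.94) the lowest. Without VSG ZT7 replicate 2 the median was 0.81, and without VSG ZT7 replicate 4 it was 0.218.

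ZT13 had the most calls, 14 of 34 (4.21% of all genes rose), with a median of 1.22. They were all 3 C1q chains, Ms4a7, Ms4a6c, Aif1, Adgre1, Lyz2, Siglec1, Cd14, Tyrobp, Laptm5, Cybb and Sirpa. Ms4a7 changed most among them (3.64-fold, log2 1.86 ± 0.49, adjusted p = 0.022) and Sirpa least (1.83-fold, log2 0.87 ± 0.25, adjusted p = 0.0321). Aif1 had 1381, 368, 1093 and 681 in the VSG animals and 175, 205, 229.6 and 265 in the sham animals, and every VSG value was above every sham value. Cd5l (2.48 ± 0.96), Timd4 (2.20 ± 0.76) and Vsig4 (1.94 ± 0.68) had the highest estimates and were not called (adjusted p = 0.0913, 0.0606 and 0.0635; 1.61 ± 0.91, 1.41 ± 0.54 and 1.64 ± 0.68 when the B cell-rich libraries were left out), while Maf (0.32 ± 0.23), Ms4a4a (0.18 ± 0.49) and Mertk (0.00 ± 0.15) had the lowest. The count rested on few animals: it was 1 without VSG ZT13 replicate 1, which is also B cell-rich, 2 without VSG ZT13 replicate 3, 4 or 5 without any 1 of the 4 sham animals of that time, 25 without VSG ZT13 replicate 2, 22 without sham ZT1 replicate 4, and 0 without the muscle-rich libraries, where 26 had an unadjusted p under 0.05. edgeR called 21 and DESeq2 27.

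At ZT19 limma called no gene of the table (0%), 8 members had an unadjusted p under 0.05, and the median over members was 0.67. edgeR called 0 genes and DESeq2 62 (0.398%), with 0 members among them, and limma with array weights called 906 genes (5.81%), 10 members included. Vsig4 (1.17 ± 0.68), Ms4a7 (1.17 ± 0.49) and Adgre1 (1.03 ± 0.50) had the highest estimates, and Maf (0.10 ± 0.23), Mertk (0.05 ± 0.15) and Marco (-0.12 ± 0.94) the lowest. C1qa had 14649, 4504, 12120.5 and 4360.3 in the VSG animals and 4591, 4882, 3712 and 5020.3 in the sham animals. In the VSG group 2 animals were far above every sham animal and 2 within the sham range.

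The different counts at the 4 times do not show different effects. In limma's test that the difference between surgeries was the same at the 4 times, no member was called (0% of all genes), none had an unadjusted p under 0.05, and edgeR and DESeq2 called 0. The smallest p-values belonged to Aif1 (0.16), Timd4 (0.178) and Marco (0.204).

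A 24 h rhythm was not called for any member in VSG or in sham fat (limma, adjusted over all genes; 0.507% of all genes were called in VSG and 1.6% in sham). In each surgery 1 member, Mertk, had an unadjusted p under 0.05. By limma its log2 amplitude, the distance from mean to peak, was 0.30 in VSG with a fitted peak at ZT15.8 (limma, adjusted p = 0.143), and 0.27 in sham with a peak at ZT16.0 (limma, adjusted p = 0.122). Mean counts of Mertk at ZT1, ZT7, ZT13 and ZT19 were 782, 792, 1064 and 1030.0 in VSG and 841, 766, 1058 and 1002 in sham animals. Both groups were lower at ZT1 and ZT7 than at ZT13 and ZT19. Without sham ZT1 replicate 4, Mertk was called in both surgeries (adjusted p = 0.0378 in VSG and 0.0106 in sham). The next smallest p-values were those of Timd4 (0.283) and Aif1 (0.332) in VSG and of Laptm5 (0.11) and Aif1 (0.131) in sham fat. The test that the rhythms differ between surgeries called 0 members (0% of all genes), and its smallest p-values, for Cd68 (0.514), Vsig4 (0.519) and Msr1 (0.523), were above 0.05; edgeR and DESeq2 were not run on rhythms.

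**Figure D4:**
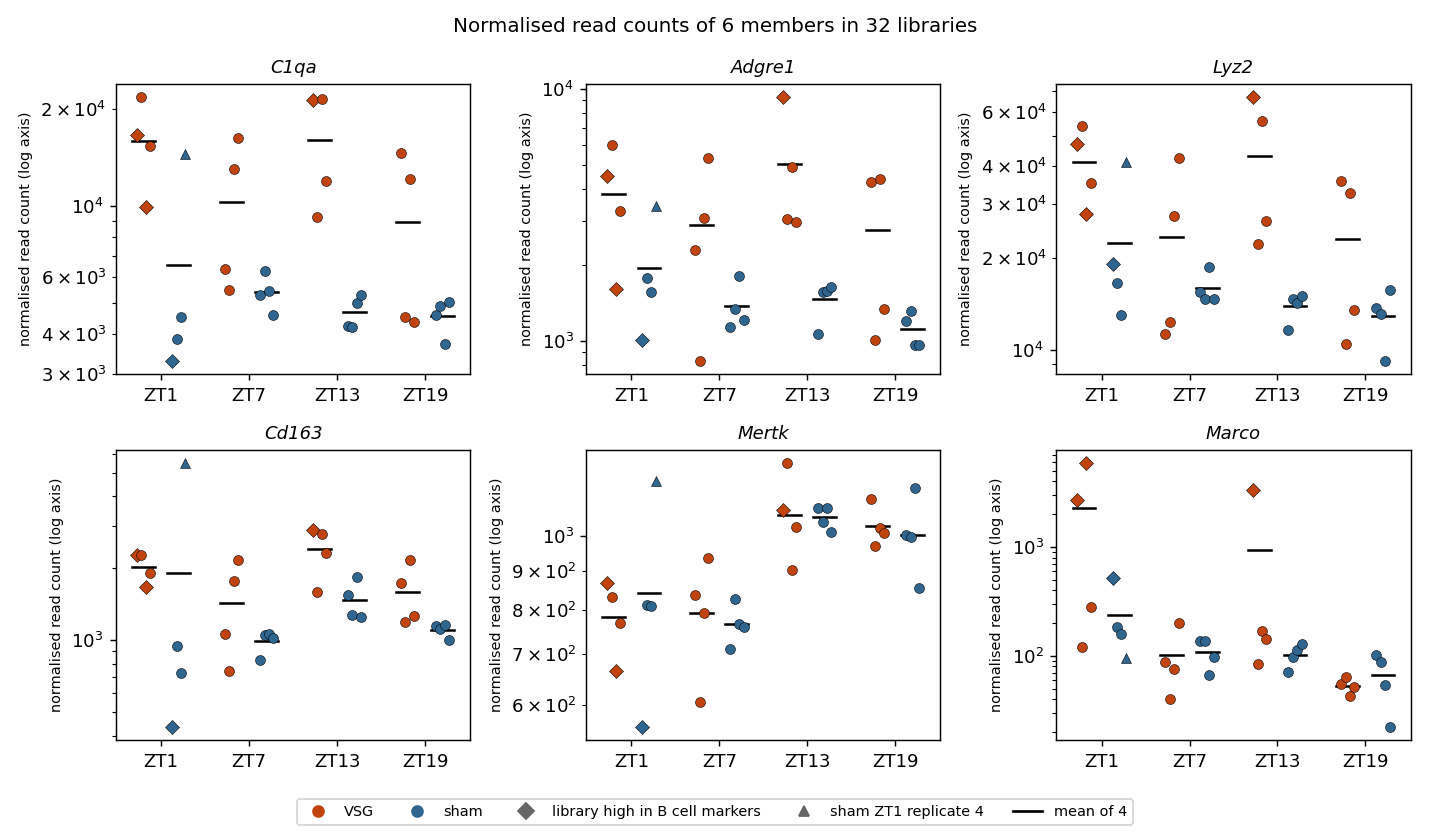
Normalised read counts (log axes) of 6 members in every library, VSG left of sham at each time, with the mean of 4 as a bar. C1qa, Adgre1 and Lyz2 are mostly higher in VSG, Cd163 is highest in sham ZT1 replicate 4, Mertk has lower means at ZT1 and ZT7 in both groups, and Marco is high in the libraries marked for B cell markers.

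Among VSG animals the macrophage genes were higher where more weight had been lost. The slope of the log2 value on recorded weight loss, taken within each time, was positive for all 34 members and called for 23 (limma; 3.62% of all genes rose). Its median was 0.13 per unit, against a median of 0.00 over all genes. The smallest p-values were those of Lyz2 (slope 0.166 ± 0.0261, adjusted p = 0.00126), Spi1 (0.173 ± 0.0285, 0.00153) and Tyrobp (0.126 ± 0.0221, 0.00234). For Lyz2 the fitted level was 1.78 times as high for each 5 units more. The 3 VSG animals with the highest weight losses (23.1, 22.8 and 21.2) had Lyz2 counts of 42479, 67136 and 35617. The 3 with the lowest (10.6, 11.1 and 11.9) had 10460.4, 13499.5 and 35089. One animal of the low end thus reached the level of the high end, and these animals come from different times, which the fit takes out.

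By role, the called slopes were 4 of 5 lineage genes, 4 of 4 lysosomal genes, 5 of 6 adaptors, integrins and oxidase, 4 of 7 scavenger and lectin receptors, 3 of 4 complement genes, 1 of 3 uptake genes, 2 of 3 Ms4a genes and 0 of 2 resident surface markers. Mertk had a slope of 0.0184 ± 0.0145 (adjusted p = 0.499) and Maf 0.0328 ± 0.0199 (0.352), the lowest of the 34. The highest was that of Cd5l (0.314 ± 0.0778, 0.0172); when the B cell-rich libraries were left out it was 0.264 ± 0.0744 (adjusted p = 0.0365). The count leaned on the ends of the range. Without the 2 animals farthest from the median weight loss, VSG ZT7 replicate 4 and VSG ZT13 replicate 1, limma called 0 members, 24 had an unadjusted p under 0.05 and the median slope was 0.12. The count was 15 without VSG ZT7 replicate 4 alone or VSG ZT19 replicate 2 alone. It was 8 when the muscle-rich libraries were left out and 11 with the neutrophil marker level as a covariate.

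In sham animals the slopes were positive for 33 of 34 members, with a median of 0.13, but only Cd163 was called (0.286 ± 0.0624, adjusted p = 0.0409; 0.334% of all genes rose). Clec10a (0.254 ± 0.0612, 0.0514) and Vsig4 (0.416 ± 0.102, 0.0529) were next. Sham ZT1 replicate 4 had both the highest weight loss of the sham mice (8.96) and the highest counts of all 32 libraries in these 3 genes, Cd163 at 5521, Clec10a at 9238 and Vsig4 at 508. The other sham animals of ZT1 had 435, 948 and 732 for Cd163. This library was also the highest sham library in adipose progenitor and mast cell markers and muscle-rich, and the part of these in the sham slopes was not tested beyond the values without it. Without that animal the slope of Cd163 was -0.0127 and the median slope over members 0.00957, so the relation in sham mice rests on it. The call of Cd163 was also lost without sham ZT1 replicate 3, sham ZT7 replicate 3, sham ZT13 replicate 3 or VSG ZT13 replicate 4, and 7 members were called without sham ZT19 replicate 1. The slopes of VSG and sham animals were not shown to differ: the test of the difference called 0 members (0.616% of all genes in either direction, 4 members with an unadjusted p under 0.05, and 0 by edgeR and DESeq2). Its smallest p-values were those of Cd163 (0.00666), Vsig4 (0.0162) and Clec10a (0.0315), whose VSG slopes were the lower ones; without sham ZT1 replicate 4 all 3 differences changed sign.

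**Figure D5:**
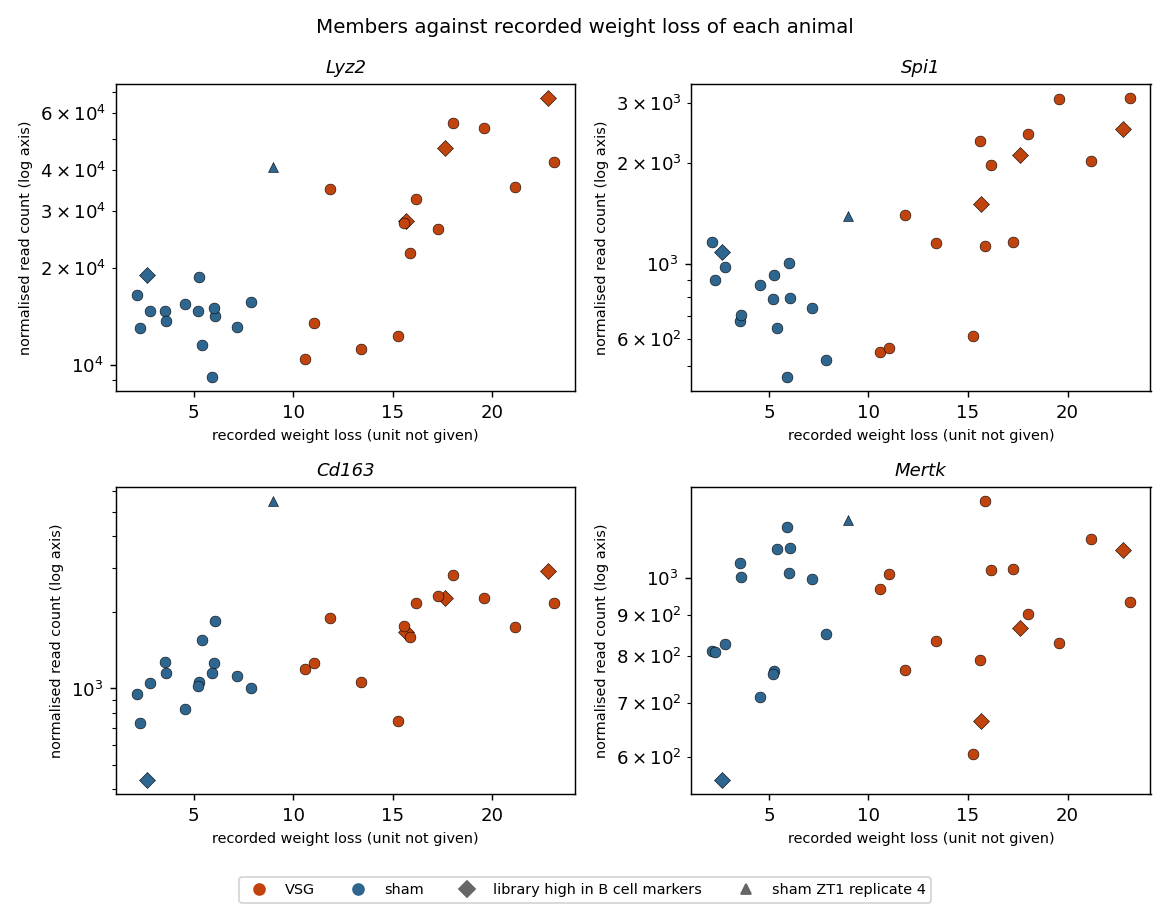
Normalised read counts (log axes) of Lyz2, Spi1, Cd163 and Mertk against the recorded weight loss of each animal, VSG and sham by colour. In VSG animals Lyz2 and Spi1 climb to the right, Mertk is level in both, and the high sham point of Cd163 is ZT1 replicate 4.

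Other genes of the myeloid compartment were set beside the members. Of 32 further genes shared by macrophages and other myeloid cells, 26 rose and none fell (median log2 0.83); Csf3r and Ccr2 in this list are also neutrophil and monocyte markers. Among those that rose were Csf3r, the receptor of granulocyte colony-stimulating factor (3.53-fold, log2 1.82 ± 0.23, adjusted p = 3.62e-06), Fcgr1, the high-affinity IgG receptor (2.58-fold, log2 1.37 ± 0.23, adjusted p = 6.62e-05), and the adaptor gene Fyb (2.54-fold, log2 1.34 ± 0.25, adjusted p = 0.000161). The slope on weight loss among VSG animals was called for 25 of the 32. Of 15 measured genes for ligands, attractants and opsonins, 10 rose and none fell (median 0.51). They were led by the chemokine genes Ccl8 (2.94-fold, log2 1.56 ± 0.29, adjusted p = 0.000211) and Ccl12 (2.16-fold, log2 1.11 ± 0.21, adjusted p = 0.000206), complement C3 (1.78-fold, log2 0.83 ± 0.19, adjusted p = 0.000993) and Ccl4 (1.74-fold, log2 0.80 ± 0.19, adjusted p = 0.00154). Csf1, the ligand of Csf1r, averaged 2697 ± 434 in VSG and 2092 ± 472 in sham (SD, n = 16 each; 1.30-fold, log2 0.38 ± 0.09, adjusted p = 0.00201).

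Lipid-associated macrophage genes changed in both directions. Of 17, 2 rose and 4 fell, with a median of 0.02. Of all genes 18.3% rose and 20.9% fell, so these counts do not set the list apart. Adipocytes express part of this list too, and Fabp4 is also in the adipocyte list. In whole fat the counts therefore do not describe macrophages alone. Spp1, the osteopontin gene (2.17-fold, log2 1.12 ± 0.28, adjusted p = 0.00263), and Trem2, a lipid-sensing receptor (1.88-fold, log2 0.91 ± 0.31, adjusted p = 0.0204), rose, while Lpl, lipoprotein lipase, which adipocytes express strongly (1.84-fold lower, log2 -0.88 ± 0.17, adjusted p = 0.000292), and Acp5, an acid phosphatase (1.42-fold lower, log2 -0.50 ± 0.10, adjusted p = 0.000329), were among those that fell. Of 12 monocyte genes 7 rose and 1 fell. Chil3, a chitinase-like secreted protein (3.58-fold, log2 1.84 ± 0.33, adjusted p = 0.000141), and Plac8 (3.14-fold, log2 1.65 ± 0.24, adjusted p = 1.29e-05) were among those that rose, and Hp, the haptoglobin gene that fat cells also make, fell (2.48-fold lower, log2 -1.31 ± 0.18, adjusted p = 8.19e-06). Ccr2 of the same list was not called (log2 -0.03 ± 0.13, adjusted p = 0.89).

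Marker levels of some other cells differed between the surgeries as well. The counts below stand beside 18.3% of all genes that rose and 20.9% that fell. All 15 neutrophil markers rose (median log2 3.54), and their summed level was 818 to 23237 in VSG and 386 to 1549 in sham libraries (medians 4625 in VSG and 788 in sham). All 15 passed the minimum mean, which was taken over all 32 libraries, so values in VSG alone could carry a gene past it. Their mean log2 level was 2.83 to 5.66 in sham libraries and 4.36 to 9.83 in VSG libraries. Averaged over the list, sham counts were thus low. The largest changes were those of Ngp (39.1-fold, log2 5.29 ± 0.72, adjusted p = 7.63e-06) and Camp (21.6-fold, log2 4.43 ± 0.61, adjusted p = 9.1e-06), both antimicrobial granule proteins, of Retnlg (18.4-fold, log2 4.21 ± 0.41, adjusted p = 1.92e-07) and of S100a9, a calcium-binding protein that averaged 1988 ± 1745 in VSG and 60.3 ± 57.2 in sham (30.5-fold, log2 4.93 ± 0.44, adjusted p = 1.35e-07). With this level as a covariate the median over the 34 macrophage genes was 0.22 and 0 were called, and the neutrophil part in the rise of the members was not tested beyond that. Of 16 B cell markers 3 rose (median 1.20), namely Cd22 (log2 1.70), Cd79b (1.55) and Bank1 (1.19). Of the 4 B cell-rich libraries 3 were VSG and 1 was sham, and the medians of the summed level were 916 in VSG and 715 in sham. The part of these libraries in the B cell estimates was not tested. Of 14 T cell markers none rose (median 0.82, none with an unadjusted p under 0.05, and 0 by edgeR and DESeq2). Of 16 skeletal muscle markers 1 rose, the enolase gene Eno3 (log2 0.85, list median 0.89). With B cell and muscle levels as covariates 26 of the 34 macrophage genes were called, and 30.9% of all genes. The members that lost their call were Itgb2, Cd86, Timd4, Cd5l and Lyve1. Of 10 adipocyte markers 1 rose and 2 fell, with summed levels of 964099.9 to 2289866 in VSG and 997990.5 to 2146036 in sham libraries. The leptin gene Lep (2.77-fold lower, log2 -1.47 ± 0.22, adjusted p = 2.12e-05) and the lipid droplet gene Cidec (log2 -0.52) fell, and Pnpla2, the first lipase of fat breakdown, rose (log2 0.32).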

How the data were processed

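The authors deposited 1 table of normalised values per gene and library for 32 libraries, whose unit here is signal: the submitters' processing notes name mm10 as the build and, among the tools, DESeq2 1.24.0 under R 3.6.3, featureCounts 1.5.0-p1, STAR 2.5.2a and bcl2fastq 2.17.1.14. What each did, the strand setting and any filter are not stated there. The deposited signal values are counts divided by a size factor of the library: 100% came back as whole reads within 0.001, so depth is known (15.7 to 37.2 × 1e6 reads). The other tables of the series were not used. Libraries of a group differed beyond sampling noise (chi-square per degree of freedom at least 21.2 over 48 pairs), and each carries a recorded weight loss of its own; the design text counts them as animals.

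Values plus a pseudocount of 1 were taken to log2 for the 15588 genes with a mean of at least 10 and fitted with limma 3.58.1 (R 4.3.3; mean-variance trend, all 32 libraries, 8 group means, Benjamini-Hochberg over all genes, called under 0.05). Fold changes on this scale understate those of low genes. Contrasts were VSG minus sham over all times and at each time, their difference between times, a 24 h cosine, and slopes on weight loss within time and surgery. The alternatives were DESeq2 1.42.0 and edgeR 4.0.16 applied to recovered reads, other scalings, filters, covariates and left-out libraries. The limma steps were tested on simulated counts drawn independently for each gene and library. No simulated library was B cell-rich or muscle-rich, so the effect of such libraries on the calls was not covered. Replicate numbers follow accession order and pair nothing.

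Members and marker lists were chosen with earlier results of these data known. Every member is named with its change; values are given for the most and least changed of each role, at single times for the 3 highest and 3 lowest, elsewhere for the 3 smallest p, and of each other list for up to 4 called genes with the largest change, of which 2 are not reported here. Csf1, Ccr2, Adipoq and the libraries singled out were picked after their values were seen.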

Additional observations from a re-analysis of the deposited data

Results flagged for a closer look

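Among 56 groups of 4 animals checked (the genes named at each single time and the mean over members, in each surgery), 4 held an animal far from the other 3, by a rule that chance meets in about 1 group of 20. Cd5l was 148 in sham ZT1 replicate 4, with the other 3 sham animals at 26.3 to 44.5. In VSG ZT13 replicate 1 Cd5l was 673, with the other 3 VSG animals at 38.2 to 96.3. Ms4a4a was 251 in VSG ZT1 replicate 1, with the others at 88.3 to 103, and 259 in sham ZT1 replicate 4, with the others at 70.8 to 86.4. Both of these VSG libraries are B cell-rich.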

How the results depend on the processing

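Over all times 26 to 31 members were called, with a median of 0.77 to 1.03 under every alternative but the neutrophil covariate (0 members, median 0.22); the 31 of edgeR and of DESeq2 held Marco and not Cd163. Leaving out single libraries gave 29 to 31 and 0.748 to 0.914. Maf lost its call without VSG ZT1 replicate 2, VSG ZT7 replicates 3 or 4, VSG ZT13 replicates 1 or 3, VSG ZT19 replicate 3, sham ZT1 replicates 1, 2 or 3, sham ZT7 replicate 2 or sham ZT13 replicate 4. Cd163 lost it without VSG ZT7 replicates 3 or 4, VSG ZT19 replicate 3 or sham ZT1 replicate 3 (log2 0.54 to 0.57).

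Counts at single times depended on the setting. At ZT1 it was 23 with array weights (which called 25.2% of all genes), 0 with B cell and muscle covariates, with the neutrophil covariate (median 0.30), without the B cell-rich libraries or with the libraries of that time alone, 14 without the muscle-rich ones, 8 without sham ZT1 replicate 4 and the B cell-rich ones, and 1 with edgeR. At ZT7 it was 17 with array weights (26.3% of all genes) and 1 with the libraries of that time alone or DESeq2. At ZT13 it was 26 with array weights (34.5%), 0 with the neutrophil covariate (median 0.34) or without the muscle-rich libraries, 2 without the B cell-rich ones, 7 without these and sham ZT1 replicate 4, 24 with the libraries of that time alone and 27 with DESeq2. At ZT19 it was 10 with array weights (5.81%), and the median without the muscle-rich libraries was 1.38, where the VSG arm is replicate 3 alone, assumed to vary like the other groups. Leaving out single libraries gave 0 to 20 at ZT1 (medians 0.751 to 1.29), 0 at ZT7 (medians 0.218 to 0.81), 1 to 25 at ZT13 (medians 0.979 to 1.52) and 0 at ZT19 (medians 0.451 to 0.958). Rhythm in sham called 1 member with array weights, without muscle-rich libraries, and without sham ZT1 replicate 4 and B cell-rich libraries, and rhythm in VSG 1 with array weights; both gave 0 to 1 without single libraries.

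The VSG slope count was 11 with the neutrophil covariate, 8 without muscle-rich libraries, 0 without the 2 farthest animals, and 15 to 27 without single libraries (median slopes 0.115 to 0.138). The sham slope count was 3 with a pseudocount of 5, TMM or the neutrophil covariate, 2 with a mean of at least 50 or without B cell-rich libraries, 5 with B cell and muscle covariates, 7 with edgeR, 8 with DESeq2, and 0 with array weights, without muscle-rich libraries, without the 2 farthest animals, with sham libraries alone or without sham ZT1 replicate 4 and B cell-rich libraries; single libraries left out gave 0 to 7 (medians 0.00957 to 0.158). The slope difference had 0 to 1 lower (median -0.0258 to 0.114). Relative to Cd68 instead of Csf1r 2 members were higher and 2 lower; 2 to 8 and 1 to 3 were so without single libraries.

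Signs changed as follows, and the cause was not tested. With the neutrophil covariate the log2 change over all times was -0.0739 for Lyz2, -0.0012 for Laptm5, -0.0393 for Itgam, -0.21 for Cd86, -1.11 for Marco, -0.40 for Timd4, -0.60 for Cd5l, -0.10 for Ms4a6c and -0.58 for Ms4a4a; at ZT1 -0.11 for Cd5l, -0.0142 for Itgb2 and -0.76 for Ms4a4a; at ZT7 -0.14 for Ms4a6c and -0.47 for Lyve1; and at ZT13 -0.37 for Cd5l, -0.0555 for Timd4 and -1.04 for Ms4a4a. Ms4a4a was also -0.32 at ZT1 and -0.18 at ZT13 without B cell-rich libraries (with or without sham ZT1 replicate 4 at ZT13) and -0.16 at ZT13 with array weights. Mertk, near 0 throughout, was -0.0071 over all times with array weights, -0.0338 without B cell-rich libraries, -0.0021 with edgeR and -0.0004 with DESeq2. At ZT1 Mertk was 0.0598 with B cell and muscle covariates, 0.037 with the neutrophil one and 0.0878 without muscle-rich libraries. At ZT13 Mertk was 0.10, 0.12 and 0.0691 under the same 3, and 0.0038, 0.0066 and 0.0099 with quantile normalization, edgeR and DESeq2. Maf was -0.0095 at ZT19 with B cell and muscle covariates. The sham slope of Cd163 was -0.0465 without muscle-rich libraries and -0.0042 without the 2 farthest animals, and that of Vsig4 -0.0804 without muscle-rich libraries. The slope difference, without muscle-rich libraries, without the farthest animals and without sham ZT1 replicate 4 and B cell-rich libraries in that order, was 0.145, 0.0674 and 0.0784 for Cd163, 0.159, 0.107 and 0.0766 for Vsig4, and 0.0644, 0.0414 and 0.043 for Clec10a. Leaving out single libraries, the ranges that crossed 0 were for Mertk -0.0403 to 0.0489 over all times, -0.24 to 0.12 at ZT1, -0.0543 to 0.15 at ZT7, -0.0795 to 0.0757 at ZT13 and -0.0285 to 0.12 at ZT19, for Ms4a4a -0.12 to 0.66 at ZT1 and -0.18 to 0.43 at ZT13, for Marco -0.68 to 0.0829 at ZT7 and -0.57 to 0.15 at ZT19, for Lyve1 -0.0889 to 0.40 at ZT7, for Maf -0.0254 to 0.23 at ZT19, for the sham slope of Cd163 -0.0127 to 0.35, and for the slope difference -0.27 to 0.0912 for Cd163, -0.42 to 0.10 for Vsig4 and -0.20 to 0.0569 for Clec10a.

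No paired analysis was possible because replicate numbers follow accession order and pair no animals. With 4 animals at a time, single-time counts moved with individual libraries, and at 15.7 × 1e6 reads or more the spread between animals exceeded the counting error (chi-square per degree of freedom at least 21.2).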

Other observations

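Markers of further cell types were counted beside the members over all times, where 18.3% of all genes rose and 20.9% fell. Of 7 mast cell markers 5 rose and 1, the stem cell factor receptor gene Kit, fell (2.08-fold lower, log2 -1.05 ± 0.16, adjusted p = 2.6e-05), with Hdc, the histamine-forming enzyme, at 287 ± 108 in VSG and 131 ± 41.2 in sham (SD, n = 16 each; 2.14-fold, log2 1.10 ± 0.17, adjusted p = 2.13e-05). Cma1 (1.95-fold, log2 0.96 ± 0.24, adjusted p = 0.00242) and Cpa3 (1.81-fold, log2 0.86 ± 0.22, adjusted p = 0.00392), both mast cell proteases, rose too. Of 6 lymphatic endothelial markers apart from Lyve1, 2 rose. The mean log2 level of the 6 was highest in the 4 B cell-rich libraries (6.39 to 7.43, against at most 6.12 in the others). The part of these libraries in the 2 estimates was not tested. Stab2, a hyaluronan scavenger receptor, averaged 153 ± 163 in VSG and 40.4 ± 41.3 in sham (3.17-fold, log2 1.66 ± 0.29, adjusted p = 8.09e-05), and Reln, the reelin gene, 105 ± 28.4 in VSG and 70.3 ± 35.7 in sham (1.58-fold, log2 0.66 ± 0.16, adjusted p = 0.00275). Of 10 endothelial markers 2 rose, Vwf (1.43-fold, log2 0.52 ± 0.10, adjusted p = 0.000395) and Pecam1 (1.16-fold, log2 0.21 ± 0.06, adjusted p = 0.00476), and 2 fell, Kdr (1.24-fold lower, log2 -0.31 ± 0.07, adjusted p = 0.000859) and Erg (1.19-fold lower, log2 -0.25 ± 0.07, adjusted p = 0.0062). Dendritic cell markers gave 1 higher (Clec9a, 1.23-fold, log2 0.29 ± 0.11, adjusted p = 0.0352) and 1 lower of 12, the lower one being Kit, which this list shares. Of 10 adipose progenitor markers 1 rose, Ly6a (log2 0.49 ± 0.11, adjusted p = 0.00126), and 2 fell, Col3a1 (1.68-fold lower, log2 -0.75 ± 0.14, adjusted p = 0.000167) and Lum (1.53-fold lower, log2 -0.62 ± 0.13, adjusted p = 0.000813).

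Members varied more among VSG than among sham animals of the same time in 27 of 34 cases, with no test of that difference. The share of all genes that did so was not counted, so the count does not show a trait of the members. Of the 4 B cell-rich libraries 3 were VSG, and of the 7 muscle-rich ones 5 were. The SD of the log2 value within times was 0.97 in VSG and 0.44 in sham for Adgre1, and 0.19 in VSG and 0.24 in sham for Mertk. Cd163 went the other way, at 0.46 in VSG and 0.81 in sham.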
